A study of Mus musculus with 8 samples.

Results

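The liver of mice kept on a high fat diet, taken away from its tumours, was compared with the liver of mice kept on a normal diet. The comparison holds 5 of the 8 arrays of the study: the 3 labelled as non-tumour tissue of high fat diet livers (mice 117, 186 and 1) and the 2 labelled as normal diet liver (mice 117 and 120), chosen by these labels alone. All mice, those on normal diet included, had been given the carcinogen DMBA as neonates of 4 to 5 days and were then fed for 30 weeks. The normal diet livers are therefore carcinogen-treated controls, and the high fat non-tumour samples come from livers that also bore a tumour. The other 3 arrays hold the tumours of the same 3 high fat livers. They enter through the shared estimate of the spread and a few levels set beside the others, mostly at the end. Strain, sex and the composition of the diets are not in the labels, mouse number 117 is used once in each diet, and no mouse of 1 diet is a partner of a mouse of the other. The arrays were taken as 5 separate mice. For number 117 this is an assumption, made because its labels give different diets.

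A liver that takes in more fat than it can burn or export stores it as triglyceride in lipid droplets, whose coat proteins, such as the perilipins and the CIDE proteins, are made in proportion to the stored fat. Hepatocytes also secrete most plasma proteins, and their output of acute phase proteins, complement and clotting factors shifts with inflammatory signals. Many hepatocyte genes further differ between males and females, because growth hormone is released in separate pulses in males and more evenly in females.

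RNA was labelled with 1 dye (Cy5) by the protocol of TORAY Industries and hybridised to arrays with 23473 probes, of which 20690 could be assigned to a gene. Levels below are the deposited normalized intensities, scaled by the authors so that the median listed probe of an array is 25, and they are given in the order of mice 117 and 120 for normal diet and 117, 186 and 1 for high fat. Fold changes are log2 differences of high fat minus normal diet with their standard error (SE), from a limma fit to the scanner readings of 16794 genes, in which an offset of 50 shrinks the changes of dim genes. A gene was called at a Benjamini-Hochberg adjusted p below 0.05 over all these genes. An exact permutation test on 3 against 2 arrays cannot give a p below 0.1, so a call rests on the spread that limma pools over genes and arrays. These arrays include the tumours. A gene that varied among the tumours can therefore miss the threshold although its levels within each diet were close. The word liver is used for a whole tissue sample, in which a change in the number of cells of a type cannot be told apart from a change in RNA per cell.

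The arrays of each group resembled each other closely. Pearson's r of the log2 values was 0.996 between the normal diet livers, 0.993 to 0.994 among the high fat livers and 0.978 to 0.983 between the diets. Between 84.3% and 87.5% of the probes were listed with a value on these 5 arrays. The scanner settings followed the diet: the gain slopes in the scanner headers were 0.444 to 0.445 and 0.216 for the normal diet arrays against 0.464 to 0.465 and 0.232 to 0.235 for the high fat arrays, and the mean reading of blank spots was 18.4 to 18.5 against 20.5 to 22.7. Diet and scan setting cannot be told apart. The hepatocyte product albumin (Alb) stood at 56458 and 52762 on normal diet and 44980, 47774 and 48177 on high fat diet. After quantile normalization the fitted log2 fold change of Alb went the other way and was not called (0.10 ± 0.05 SE, limma adjusted p = 0.329). Of 24 mature hepatocyte markers, 1 was called higher and 1 lower (4.17% each, against 1.81% and 2.03% of all genes), and 16 lay wholly lower on high fat diet, where 31.8% of all genes did on the deposited scale. Their summed level was 344597 to 351652 on normal diet and 246448 to 272198 on high fat diet, and its part in the results below was not tested. The Y-linked Eif2s3y read 283 and 239 against 209.9, 219 and 269 and Xist read 13.5 and 14.3 against 12.4, 12.9 and 16.2, so the groups overlapped in both.

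Of the 16794 genes, 645 were called (3.84%), 304 of them higher (1.81%) and 341 lower (2.03%) on high fat diet. A change of over 2-fold was called for 67 genes higher (0.399%) and 35 lower (0.208%). The median log2 fold change over all genes was -0.00497, and 3363 genes had an unadjusted p below 0.05. The split between directions depended on the scaling: 47.1% of the calls were higher with quantile normalization, 77.3% with arrays scaled to the same median, where 1084 genes were called higher and 319 lower, and 97.2% without normalization. Without the normal diet array of mouse 117 there were 129 calls and without that of mouse 120 there were 100, against 256, 257 and 372 without high fat 117, 186 and 1. Subtraction of each spot's local background left 3 calls (Apc, Nat8 and C8b, all lower), but this local reading rose with its own spot (Spearman's rho 0.902 to 0.96 across spots). Beside a gene below, "ended" lists the other alternatives under which its adjusted p passed 0.05, with the range of its adjusted p over all of them. Called genes whose levels are given without such a sentence kept their call in all alternatives but local background.

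**Figure D1:**
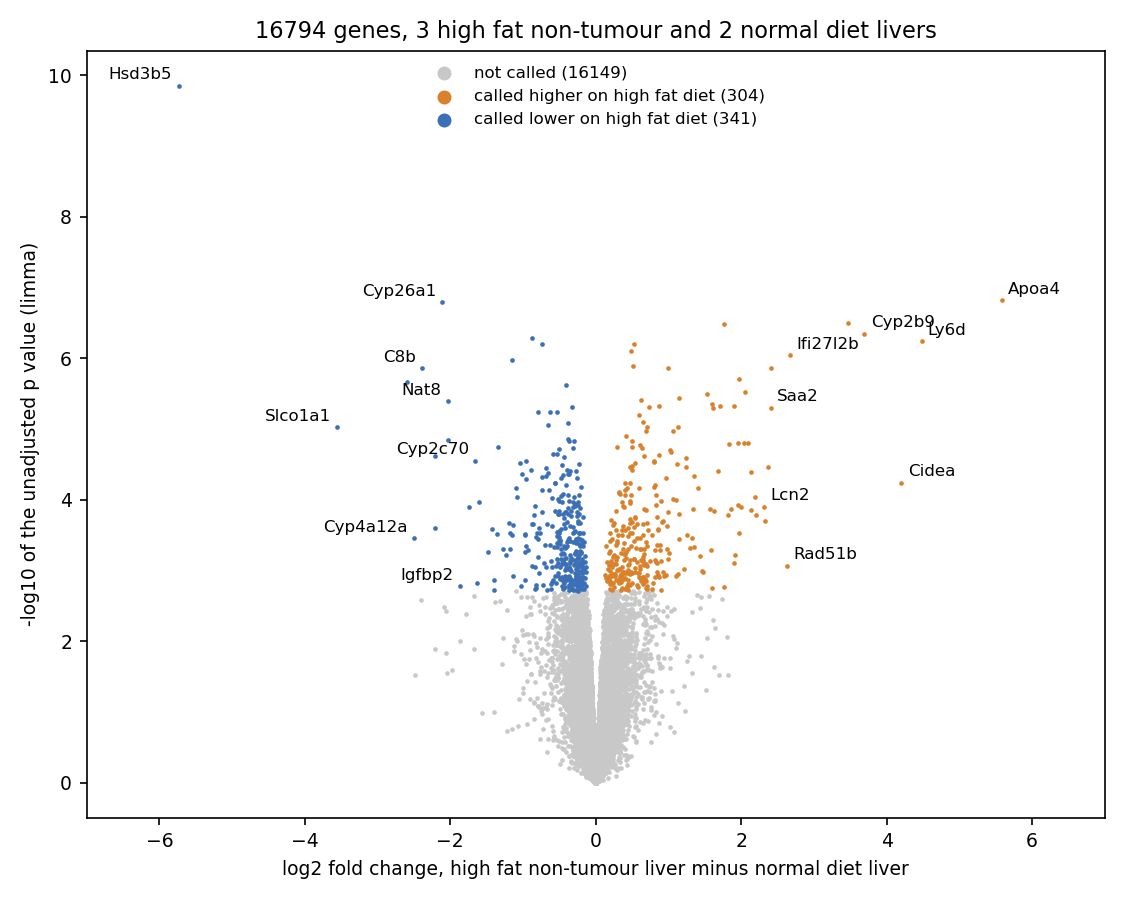
Each point is 1 of 16794 genes, with the log2 fold change of high fat non-tumour over normal diet liver on the x axis and the -log10 of limma's unadjusted p on the y axis. Called genes are coloured, 304 higher and 341 lower; Apoa4 and Ly6d lie farthest to the right and Hsd3b5 farthest to the left.

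Of 47 gene lists, written with earlier results of these data known, 34 held at least 1 called gene. Their shares of calls are therefore descriptive and test nothing about the lists. The counts of calls below are to be read beside the shares of all genes tested, 1.81% higher and 2.03% lower. The lists with the largest shares of called members were the male-biased liver genes with 13 of 25 lower, the acute phase proteins with 12 of 33 higher, the female-biased liver genes with 7 of 24 higher, the lipid-associated macrophage markers with 6 of 21 higher and the lipid droplet genes with 7 of 25 higher.

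**Figure D2:**
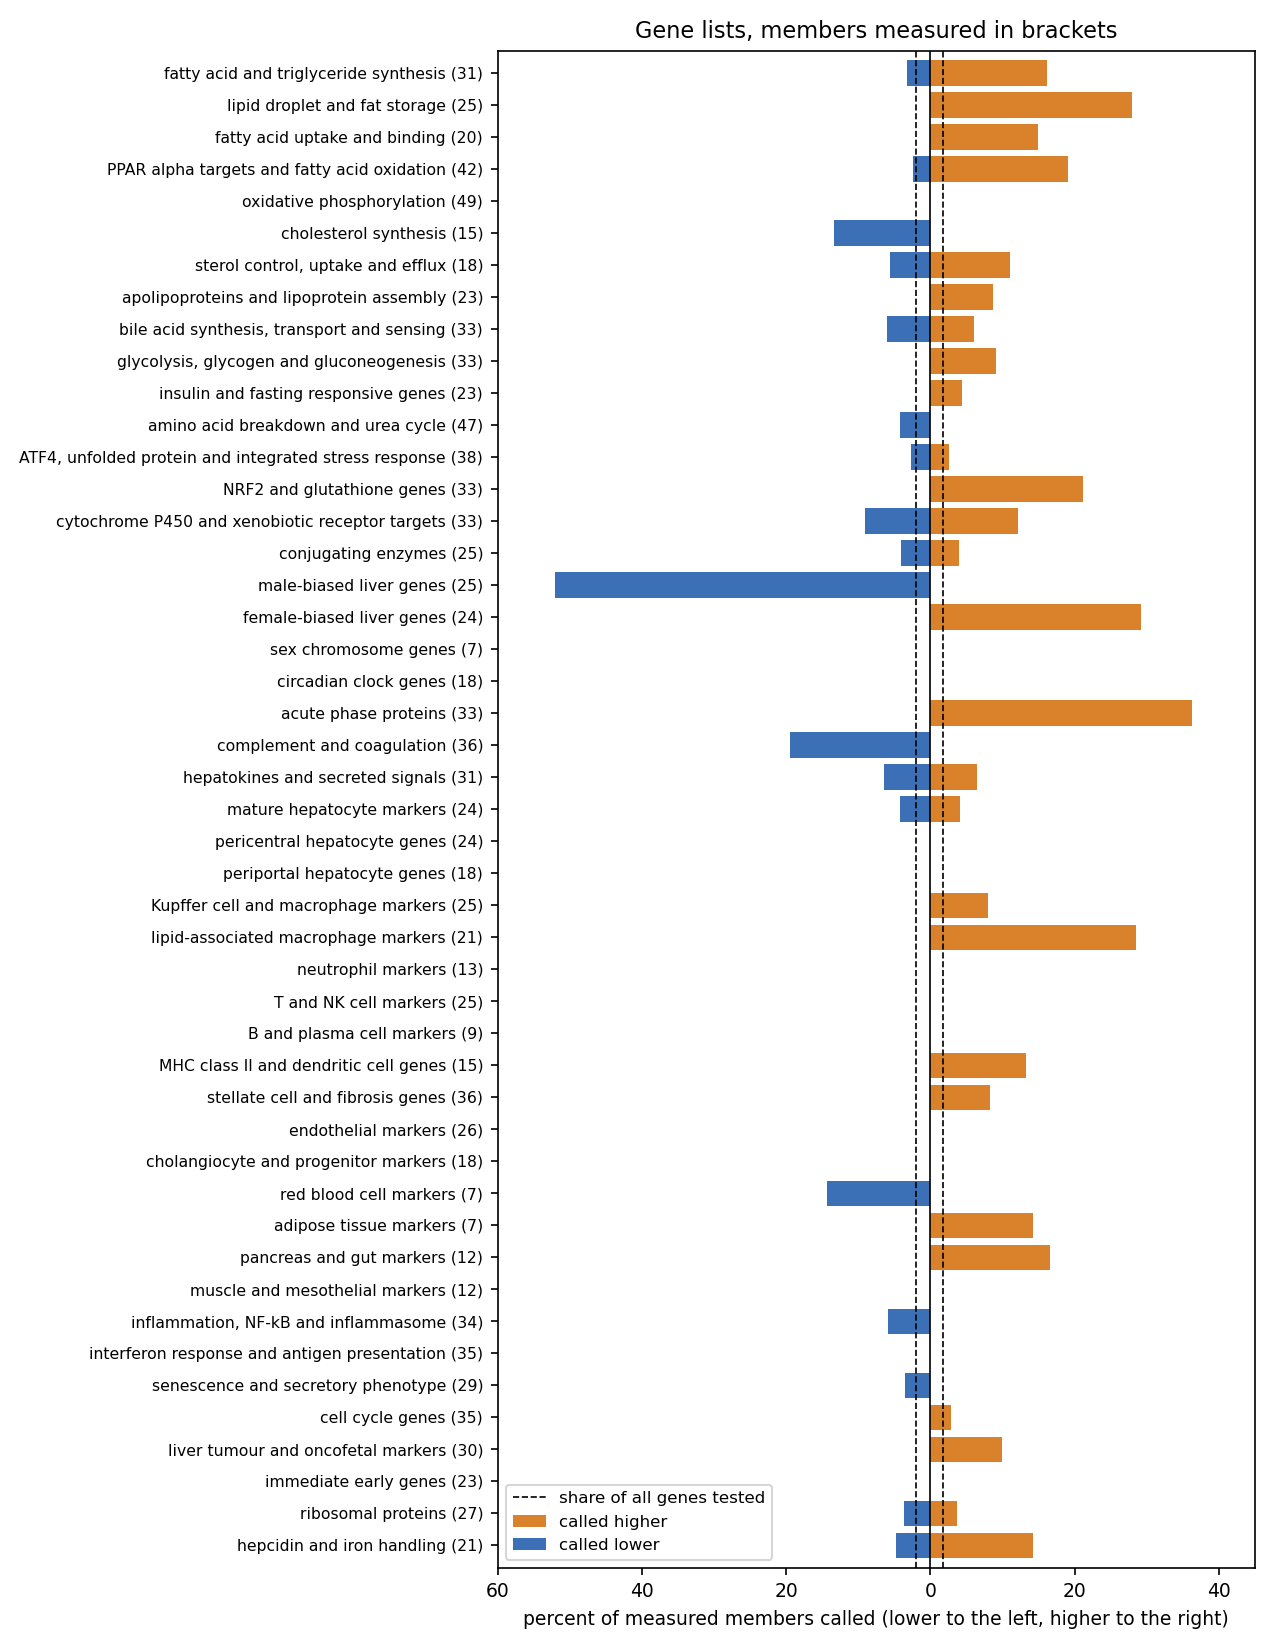
Bars give the percent of measured members of each list called lower (left) or higher (right) on high fat diet, with the number measured in brackets. The lists were written with earlier results of these data known. Dashed lines mark the shares among all genes tested, 2.03% lower and 1.81% higher; the male-biased list reaches farthest to the left and the acute phase list farthest to the right.

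Genes that coat and fill lipid droplets rose on high fat diet where they passed the test. Of 25 droplet and fat storage genes, 7 were called higher and none lower, with a median log2 fold change of 0.35 against -0.00497 over all genes. Cidea, which helps droplets to fuse and is scarce in lean liver, read 97.5 and 19.7 on normal diet and 1428, 1874 and 1910 on high fat diet. The lowest high fat value was far above both normal diet values, although these differed from each other. The fitted log2 fold change was 4.20 ± 0.46 (SE, adjusted p = 0.00891). Cidec, a second droplet fusion protein, read 40.5 and 40.3 against 365, 389 and 307, a log2 fold change of 2.20 ± 0.28 (SE, adjusted p = 0.0147). Plin2, the main droplet coat protein of hepatocytes, read 2381 and 2540 against 4911, 6286 and 5379 and changed by 1.41 ± 0.16 (SE, adjusted p = 0.00978). Mogat1, an acyltransferase of triglyceride synthesis, read 28.3 and 16.6 against 142, 176 and 169 and changed by 1.62 ± 0.12 (SE, adjusted p = 0.00254). Pparg, the nuclear receptor that drives fat storage programmes, read 119 and 141 against 298, 232 and 254, a log2 fold change of 0.90 ± 0.11 (SE, adjusted p = 0.0123). In all 5 genes every high fat value was above both normal diet values. Of all 15702 genes listed on the 5 arrays, 13% lay wholly above and 31.8% wholly below in this way on the deposited scale. The remaining calls were Plin3, another droplet coat protein, with 0.61 ± 0.11 and the lipase Lipe with 0.18 ± 0.03. Plin1, the droplet coat protein of adipocytes, read 12.1 and 13.7 against 11.4, 10.7 and 14.6, and 1 of 7 adipose tissue markers (Lipe) was called. The call for Cidea ended without normal diet 120 (adjusted p 0.00106 to 0.0663). The call for Cidec ended without normal diet 117 or 120 or high fat 117 or 186 (adjusted p 0.000449 to 0.103). The call for Plin2 ended without normal diet 117 or 120 (adjusted p 0.0018 to 0.0756). The call for Pparg ended without normal diet 117 or 120 (adjusted p 0.00252 to 0.0806). The call for Plin3 ended without normal diet 117 or 120, high fat 117, 186 or 1 or tumour 117 or 1, and with the blank mean subtracted, the deposited values, no filter on dim genes or only the 5 arrays fitted (adjusted p 0.00651 to 0.215). The call for Lipe ended without normal diet 117 or 120, high fat 117, 186 or 1 or tumour 1, and with the blank mean subtracted, offset 16, the deposited values or a variance trend (adjusted p 0.002 to 0.613). Over the droplet list, 2 genes were called without normal diet 117 and 1 without normal diet 120.

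Uptake and lipoprotein genes held a few large rises. The largest rise of any gene with diets that did not overlap was that of Apoa4, an apolipoprotein of the intestine that fatty liver also makes: 349 and 467 on normal diet and 15996, 23731 and 19577 on high fat diet. Its log2 fold change was 5.59 ± 0.24 (SE, adjusted p = 0.000894). Apoc2, the activator of lipoprotein lipase, read 2239 and 2121 against 5975, 5805 and 6403 and changed by 1.72 ± 0.12 (SE, adjusted p = 0.00254). These were the only calls among 23 apolipoprotein and assembly genes, whose median was 0.01. Apob, the structural protein of very low density lipoprotein, read 561 and 581 against 896, 464 and 579, and Mttp, which loads fat onto it, read 472 and 540.2 against 760.4, 490.4 and 519; in both the diets overlapped. Among 20 uptake and binding genes, 3 were called higher and none lower. The fatty acid transporter Cd36 read 474 and 309 against 1815, 2039 and 1924 and changed by 2.33 ± 0.31 (SE, adjusted p = 0.0168). The fatty acid binding protein Fabp2 read 1212 and 853 against 2862, 2683 and 3139, a log2 fold change of 1.69 ± 0.17 (SE, adjusted p = 0.0072). The lipoprotein receptor Vldlr, the third call, was dimmer, at 20.5 and 13.3 against 62, 49.5 and 68.8. Every high fat value of these 3 genes was above both normal diet values. Fabp4, of adipocytes and macrophages, missed the threshold at 103 and 138 against 413, 432 and 405 (adjusted p = 0.0543). The call for Cd36 ended without normal diet 117 or 120 or high fat 117 or 186 (adjusted p 0.00193 to 0.12). The call for Fabp2 ended without normal diet 120 (adjusted p 0.000693 to 0.0517). The call for Vldlr ended without normal diet 117 or 120, high fat 117, 186 or 1 or tumour 117, and with no filter on dim genes (adjusted p 0.01 to 0.248).

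The window of 250 bases upstream of the Apoc2 start (RefSeq, GRCm38.p6, chr7:19677942-19678191, minus strand) is shown because it holds a match to AGGNCANAGGNCA, the direct repeat bound by PPAR and RXR receptors, searched on both strands and present in 0.338% of all such windows. The Apoa4 window holds no match, and neither does any of the 10 windows of 6 called lipid droplet genes. Capitals mark the match, which is a run of letters and not a measured site.
Apoc2: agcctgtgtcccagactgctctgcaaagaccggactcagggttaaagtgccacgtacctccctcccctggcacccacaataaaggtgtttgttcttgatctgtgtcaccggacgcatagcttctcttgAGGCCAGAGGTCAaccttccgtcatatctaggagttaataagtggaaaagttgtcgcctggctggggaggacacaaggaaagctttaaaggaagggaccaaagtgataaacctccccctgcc

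The genes of fatty acid and triglyceride synthesis did not move as a block. Of 31 measured, 5 were called higher and 1 lower, with a median of 0.27. Fads2, the desaturase that starts the making of long polyunsaturated fatty acids, read 262 and 233 on normal diet and 750.5, 819 and 805 on high fat diet and changed by 1.60 ± 0.11 (SE, adjusted p = 0.00254). Elovl5, the elongase of the same pathway, read 5146 and 3568 against 10275, 10571 and 7697 and changed by 1.36 ± 0.21 (SE, adjusted p = 0.0248). Gpat3, an enzyme of the first step of glycerolipid synthesis, read 43.6 and 31 against 88.4, 87.1 and 94.7, and Pgd, which makes NADPH, read 147 and 146 against 222, 229 and 227. Their log2 fold changes were 0.74 ± 0.05 and 0.60 ± 0.05 (SE, adjusted p = 0.00254 and 0.0029). The diets did not overlap in these 4 genes. Scd1, the main desaturase of saturated fatty acids, was bright in every liver, at 29778 and 25345 against 33382, 29095 and 33728. It was called higher by 0.47 ± 0.05 (SE, adjusted p = 0.00891), although its deposited levels overlapped between the diets. Acss2, which makes acetyl-CoA from acetate, was the 1 call downward, at 639 and 784 against 224, 297 and 248 (-1.14 ± 0.15, adjusted p = 0.0174). Fasn, the fatty acid synthase, read 1822 and 1738 against 1736, 1418 and 1928, and its regulator Srebf1 read 1076 and 558 against 709, 498 and 964; both overlapped between the diets (adjusted p = 0.646 and 0.968). The call for Elovl5 ended without normal diet 117 or 120 or high fat 117 or 186, and with only the 5 arrays fitted (adjusted p 0.00568 to 0.132). The call for Scd1 ended without normal diet 120, and with the blank mean subtracted, the deposited values or a variance trend (adjusted p 0.0083 to 0.47). The call for Acss2 ended without normal diet 117 or 120 or high fat 117 or 1 (adjusted p 0.0032 to 0.121).

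**Figure D3:**
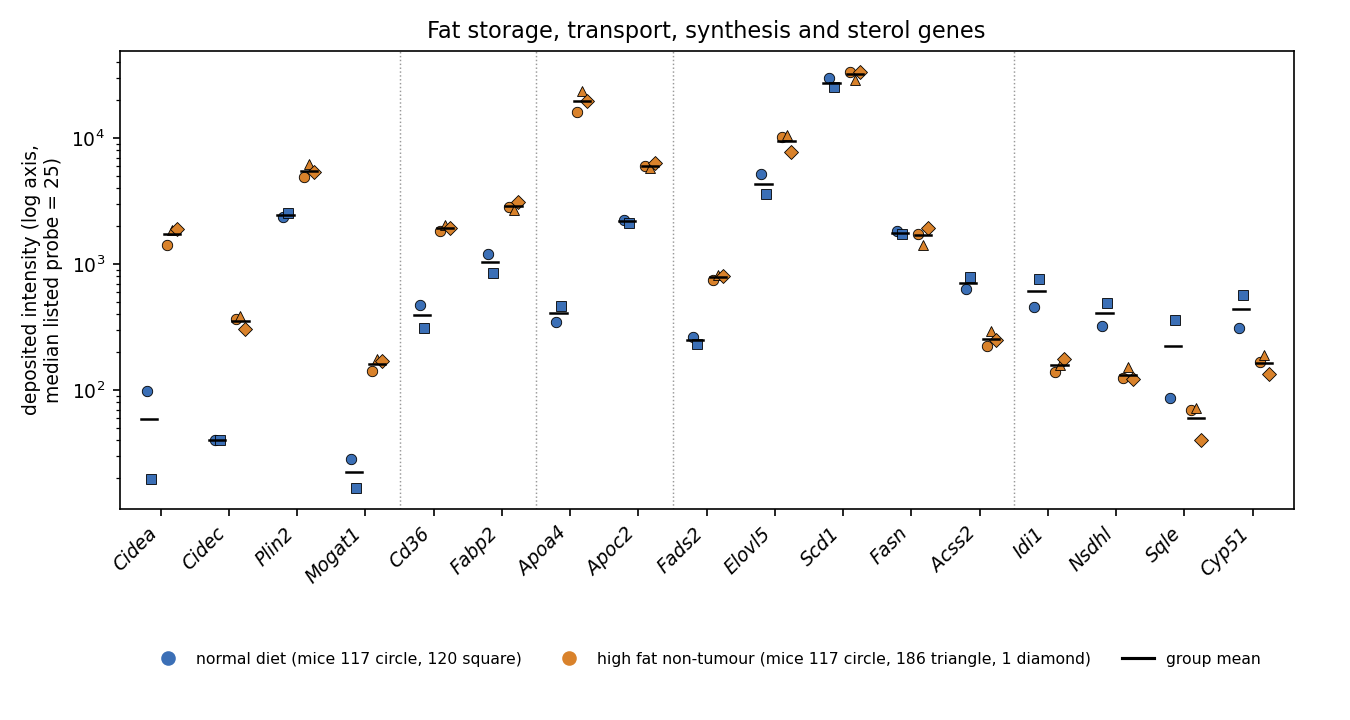
Deposited intensity on a log axis of genes of fat storage, uptake, lipoproteins, synthesis and sterol synthesis, 1 point per liver (2 normal diet, 3 high fat non-tumour), with a bar at the arithmetic mean of each diet. High fat points lie above the normal diet points for Cidea, Cidec, Cd36 and Apoa4, overlap with them for Scd1 and Fasn, and lie below them for Acss2, Idi1 and Nsdhl.

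Genes of fatty acid oxidation and other targets of PPAR alpha, the receptor that senses fatty acids in liver, were called mostly upward. Of 42 measured, 8 were called higher and 1 lower, with a median of 0.45. Vnn1, which makes cysteamine and is a sensitive target of the receptor, read 377 and 346 against 1147, 1546 and 1375 and changed by 1.90 ± 0.32 (SE, adjusted p = 0.0323). Crat, which moves acyl groups between CoA and carnitine, read 122 and 94.2 against 309, 281 and 386 and changed by 1.34 ± 0.14 (SE, adjusted p = 0.00789). Both subunits of the mitochondrial trifunctional protein were called: Hadha read 919 and 828 against 989, 1050 and 1117 and Hadhb 1254 and 1324 against 1696, 1756 and 1831. The acyl-CoA dehydrogenase Acadl read 1140 and 1088 against 1355, 1365 and 1416, a change of 0.49 ± 0.03 (SE, adjusted p = 0.00119). All 3 high fat livers were above both normal diet livers in each of these genes. Cpt1a, the gate of mitochondrial oxidation, read 752 and 961 against 1711, 1441 and 1056 (adjusted p = 0.141), and Cyp4a14, often the strongest target of the receptor, 2150 and 1642 against 3017, 2894 and 4044 (adjusted p = 0.487). In the tumours, whose spread enters the test, Cyp4a14 read 435.9, 551.5 and 68.3. The fasting hormone Fgf21 ranged from 28.6 to 180 among the high fat livers and read 21.2 and 37.6 on normal diet (adjusted p = 0.375). None of 49 oxidative phosphorylation genes was called, and their median was -0.05. On the deposited scale 36 of the 49 lay wholly lower and 0 wholly higher, where 31.8% and 13% of all genes did. The call for Vnn1 ended without normal diet 117 or 120, high fat 117, 186 or 1 or tumour 117 (adjusted p 0.00794 to 0.174). The call for Crat ended without normal diet 120 (adjusted p 0.000617 to 0.0715). The call for Hadha ended without normal diet 120, and with the blank mean subtracted, the deposited values or a variance trend (adjusted p 0.00348 to 0.333). The call for Hadhb ended without normal diet 117 or 120 or high fat 117, 186 or 1, and with the deposited values (adjusted p 0.00182 to 0.173). The call for Acadl ended with the deposited values (adjusted p 0.00102 to 0.238). Over the list, 3 genes were called higher without normal diet 117 and 1 without normal diet 120.

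Of 15 measured genes of cholesterol synthesis, 2 were called lower and none higher, with a median of -0.42. Idi1, an isomerase early in the isoprenoid part of the pathway, read 457 and 767 on normal diet and 139, 158 and 175 on high fat diet and changed by -1.48 ± 0.23 (SE, adjusted p = 0.0272). Nsdhl, which acts after the sterol ring has formed, read 320.1 and 491 against 124, 152 and 122 and changed by -1.13 ± 0.21 (SE, adjusted p = 0.0393). Sqle, which makes the precursor of the ring, differed between the normal diet livers, at 86.2 and 359.8 against 69.9, 71.5 and 40.4 (adjusted p = 0.258). Cyp51 read 313 and 567 against 168, 190.4 and 133, Msmo1 832 and 1673 against 432, 568 and 469 and Tm7sf2 1090 and 1780 against 613, 385 and 411, with adjusted p of 0.1, 0.148 and 0.105. In all 6 genes normal diet mouse 120 was above mouse 117, and both were above every high fat liver. Of the 15 genes, 12 lay wholly lower on high fat diet and 0 wholly higher. Of all genes, 31.8% lay wholly lower and 13% wholly higher on the deposited scale. Stard4, which carries cholesterol inside the cell, was also called lower, at 224 and 223 against 93.4, 86.4 and 85.2 (-0.87 ± 0.15, adjusted p = 0.0339). Osbpl3, an oxysterol binding protein, rose from 25 and 20.8 to 160.3, 162 and 134, a change of 1.53 ± 0.10 (SE, adjusted p = 0.0024). The call for Idi1 ended without normal diet 120 or high fat 117, 186 or 1 (adjusted p 0.00364 to 0.121). The call for Nsdhl ended without normal diet 117 or 120, high fat 117, 186 or 1 or tumour 117, and with no filter on dim genes or only the 5 arrays fitted (adjusted p 0.00494 to 0.174). The call for Stard4 ended without normal diet 117 or 120, high fat 117, 186 or 1 or tumour 117 (adjusted p 0.00417 to 0.185). With the deposited values 5 of the 15 synthesis genes were called lower, and without normal diet 120, or without any 1 of the high fat livers, none was.

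The few calls among bile acid genes went in both directions. Of 33 measured, 2 were called higher and 2 lower (6.06% each, against 1.81% and 2.03% of all genes). Cyp7a1, which sets the pace at which bile acids are made, read 156 and 151 on normal diet and 125, 118 and 171 on high fat diet; the diets overlapped and the log2 fold change was -0.01 ± 0.17 (SE, adjusted p = 0.981). Cyp2c70, which makes the muricholic acids of mice, fell from 4367 and 3975 to 1322, 924 and 976, a change of -1.66 ± 0.16 (SE, adjusted p = 0.0064). Abcb4, which exports phospholipid into bile, read 648 and 798 against 1269, 1056 and 1308, and the bile acid importer Slc10a2 read 55.1 and 43.1 against 102, 103 and 107. Their log2 fold changes were 0.85 ± 0.12 and 0.70 ± 0.10 (SE, adjusted p = 0.019 and 0.023). Slc10a1, the main importer of bile acids from blood, read 4243 and 3759 against 1680, 1812 and 1739, with no overlap and an adjusted p of 0.283. In the tumours, whose spread enters the test, it read 401, 423 and 153. The remaining call, Slco1a1, is described with the male-biased genes. The call for Cyp2c70 ended without normal diet 117 or 120 (adjusted p 0.00058 to 0.0554). The call for Abcb4 ended without normal diet 117 or 120 or high fat 117 or 1 (adjusted p 0.00245 to 0.103). The call for Slc10a2 ended without normal diet 117 or 120 or high fat 117, 186 or 1 (adjusted p 0.00651 to 0.149).

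Male-biased genes formed the list with the largest share of calls. Of 25 measured, 13 were called lower and none higher, and the median log2 fold change was -1.08. Hsd3b5, a steroid-reducing enzyme found in male liver, read 3752 and 3153 on normal diet and 11.5, 4.9 and 5.6 on high fat diet. Its log2 fold change of -5.74 ± 0.08 (SE, adjusted p = 2.34e-06) was the largest fall of any gene tested. Slco1a1, an importer of organic anions, read 1442 and 1236 against 82.2, 39 and 37.6 and changed by -3.55 ± 0.29 (SE, adjusted p = 0.00367). C8b, a subunit of the complement attack complex, read 945 and 918 against 111, 96.9 and 131, a log2 fold change of -2.39 ± 0.14 (SE, adjusted p = 0.00137). In these 3 genes every high fat value lay far below both normal diet values. With each spot's local background subtracted the log2 fold change of Hsd3b5 was 0.43 and was not called. Cyp4a12a, an arachidonic acid hydroxylase, read 1412 and 1856 against 329, 195 and 114 and its near-identical neighbour Cyp4a12b 602 and 809 against 125, 90.9 and 67.7. Their log2 fold changes were -2.50 ± 0.37 and -2.22 ± 0.21 (SE, adjusted p = 0.0217 and 0.00574), and a probe may bind the transcripts of both. Selenbp2, a selenium binding protein, read 6262 and 8154 against 2234, 1991 and 1704 and changed by -1.61 ± 0.19 (SE, adjusted p = 0.0123). Serpina1e, a protease inhibitor of a family of near-identical copies, read 34339 and 33290 against 10464, 8514 and 13327, and Keg1, of the glycine acyltransferase family, 2361 and 1945 against 839, 595 and 557. Among the members that missed the threshold, Cyp7b1, an oxysterol hydroxylase, read 3118 and 4290 against 681, 532 and 852 (adjusted p = 0.0645) and Cyp2d9, a steroid hydroxylase, 11388 and 14410 against 7025, 4982 and 5194 (adjusted p = 0.128). Elovl3, a fatty acid elongase, overlapped between the diets, at 1850 and 1088 against 364, 418 and 1138. The call for Cyp4a12a ended without normal diet 117 or 120 or high fat 186 (adjusted p 0.00794 to 0.143). The call for Cyp4a12b ended without normal diet 120 (adjusted p 0.000347 to 0.0503). The call for Selenbp2 ended without normal diet 117 or 120 (adjusted p 0.000959 to 0.0932). The call for Serpina1e ended without normal diet 117 or 120 or high fat 117 (adjusted p 0.00383 to 0.123). The call for Keg1 ended without normal diet 117 or 120, high fat 117, 186 or 1 or tumour 117 or 186, and with no filter on dim genes (adjusted p 0.00648 to 0.251). Over the list, 5 genes were called lower without normal diet 117 and 5 without normal diet 120, 7 without high fat 117 or 186 and 9 without high fat 1.

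The windows of 250 bases upstream of 3 of these genes are shown because growth hormone acts on male-biased genes through the factor STAT5, whose core motif is TTCNNNGAA. They are taken from RefSeq on GRCm38.p6: Hsd3b5 at chr3:98645535-98645784 (minus strand), Slco1a1 at chr6:141946963-141947212 (minus strand) and Keg1 at chr19:12695540-12695789 (plus strand). Both strands were searched for TTCNNNGAA and for TATAAA. Capitals mark TTCNNNGAA in Keg1 and TTTATA, which is TATAAA on the other strand, in Slco1a1; the Hsd3b5 window holds neither.
Hsd3b5: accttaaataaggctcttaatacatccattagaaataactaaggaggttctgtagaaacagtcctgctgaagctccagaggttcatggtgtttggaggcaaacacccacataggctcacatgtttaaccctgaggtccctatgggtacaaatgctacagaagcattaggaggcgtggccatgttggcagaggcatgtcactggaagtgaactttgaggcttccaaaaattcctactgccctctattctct
Slco1a1: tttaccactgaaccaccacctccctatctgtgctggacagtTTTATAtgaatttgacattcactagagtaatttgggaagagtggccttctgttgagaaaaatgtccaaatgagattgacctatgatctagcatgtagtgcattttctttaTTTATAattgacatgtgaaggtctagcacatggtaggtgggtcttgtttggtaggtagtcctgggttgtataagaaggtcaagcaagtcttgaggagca
Keg1: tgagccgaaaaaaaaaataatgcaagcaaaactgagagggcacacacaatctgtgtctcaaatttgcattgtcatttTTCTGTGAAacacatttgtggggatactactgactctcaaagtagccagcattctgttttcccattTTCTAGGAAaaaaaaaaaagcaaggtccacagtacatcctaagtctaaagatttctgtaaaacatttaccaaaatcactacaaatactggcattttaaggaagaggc
Of the 13 male-biased genes called lower, 10 had windows, 12 in all, and 1 of these held TTCNNNGAA (8.33%), against 7.02% of all 32851 windows. TATAAA lay in 2 of the 12 windows, against 12.4% of all windows. A match is a run of letters, and sequence farther from the start was not read.

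Among 24 female-biased genes, 7 were called higher and none lower, with a median of 0.17. Cyp2b9, a cytochrome P450 of female liver, was dim on normal diet, at 16.9 and 6.7, and read 538, 769.6 and 889.9 on high fat diet. Its log2 fold change was 3.70 ± 0.18 (SE, adjusted p = 0.00105). Its close relative Cyp2b13 read 90.2 and 89.7 against 154, 200.4 and 236 (0.89 ± 0.15, adjusted p = 0.0317), and probes of this family can bind more than 1 member. Cyp17a1, an enzyme of androgen synthesis, read 22.3 and 23.1 against 168, 193 and 229 and changed by 1.82 ± 0.23 (SE, adjusted p = 0.0146). Cd36, given above, is also on this list, as is Rtn4, a protein of the endoplasmic reticulum, at 589 and 668 against 1419, 1554 and 1217 (1.26 ± 0.18, adjusted p = 0.0205). The diets did not overlap in these genes. Over the list, log2 fold changes ran from -1.09 to 3.70, with 12 members wholly higher and 6 wholly lower on high fat diet. On the deposited scale, 13% of all genes lay wholly higher and 31.8% wholly lower. None of 7 sex chromosome genes was called. Igf1, the secreted target of growth hormone, read 4938 and 4057 against 2454, 2319 and 2454, with no overlap, a change of -0.58 ± 0.44 (SE) and an adjusted p of 0.543. In the tumours, whose spread enters this SE, Igf1 read 382, 358 and 122. The growth hormone receptor Ghr read 743 and 596 against 517, 714 and 547 and overlapped. The call for Cyp2b13 ended without normal diet 117 or 120, tumour 117 or high fat 186 or 1 (adjusted p 0.00587 to 0.176). The call for Cyp17a1 ended without normal diet 117 or 120 or high fat 186 (adjusted p 0.000338 to 0.103). The call for Rtn4 ended without normal diet 117 or 120 or high fat 117 or 186 (adjusted p 0.00395 to 0.132). Over the list, 1 gene was called higher without normal diet 117, without normal diet 120 or without high fat 186.

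**Figure D4:**
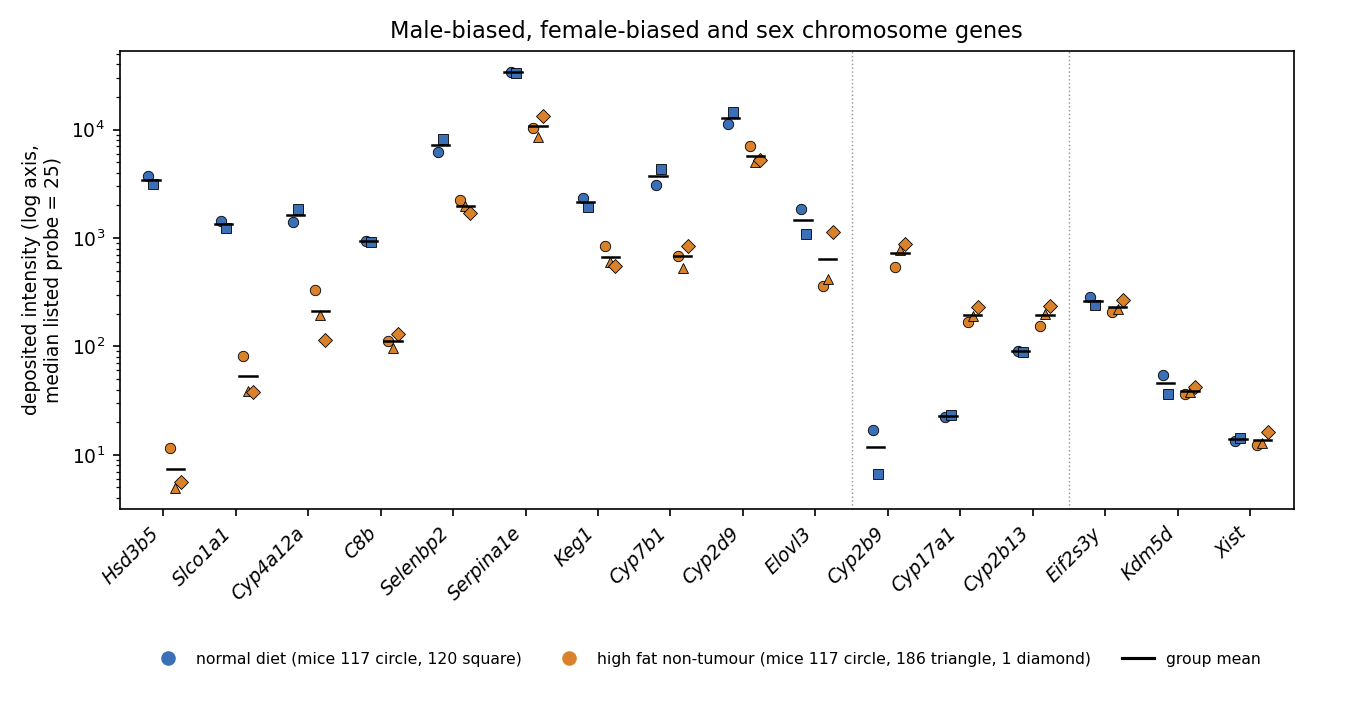
Deposited intensity on a log axis of male-biased (left), female-biased (middle) and sex chromosome genes (right), 1 point per liver, with a bar at the arithmetic mean of each diet. High fat points lie below normal diet points for Hsd3b5, Slco1a1 and C8b and above them for Cyp2b9 and Cyp17a1, while the diets overlap for Eif2s3y and Xist.

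Cytochrome P450 genes and xenobiotic receptor targets split, with 4 of 33 higher and 3 lower. Cyp2b10, the standard target of the receptor CAR, rose from 84.9 and 39.7 to 324, 377 and 454, a change of 2.03 ± 0.18 (SE, adjusted p = 0.00494). Its sequence is close to that of Cyp2b9. Ces2a, a carboxylesterase, fell from 5628 and 5522 to 1276, 812 and 992 (-2.21 ± 0.31, adjusted p = 0.0185). Cyp2c55, which oxidises arachidonic acid, fell from 96.8 and 97.9 to 27.1, 27.6 and 28.5 (-0.87 ± 0.04, adjusted p = 0.00105). Several bright P450 genes read lower in every high fat liver than in both normal diet livers, as 31.8% of all genes did, without passing the test. Cyp1a2 read 4402 and 4180 against 1180, 612 and 1121 (adjusted p = 0.111), Cyp2c37 3167 and 2612 against 575, 407 and 642 (adjusted p = 0.0687) and Cyp3a11 7475 and 9268 against 3154, 4006 and 3753 (adjusted p = 0.21). The summed level of the 33 genes was 141707 to 150602 on normal diet and 74320 to 89093 on high fat diet. With only the 5 arrays fitted, 9 of the list were called lower. The other lower call was Cyp2u1, also on the male-biased list, and the other higher calls were Cyp2b9, Cyp2b13 and Cyp2c39. On none of the lists, Cyp26a1, which breaks down retinoic acid, fell from 319.5 and 300.1 to 23.2, 20.9 and 38.9 (-2.11 ± 0.09, adjusted p = 0.000894). Nat8, an acetyltransferase and likewise on no list, fell from 742 and 835 to 126, 109 and 155 (-2.03 ± 0.14, adjusted p = 0.00254). The call for Ces2a ended without normal diet 117 or 120 or high fat 186 or 1 (adjusted p 0.00159 to 0.121). The call for Cyp2c39 ended without normal diet 117 or 120, high fat 117, 186 or 1 or tumour 117, and with the blank mean subtracted, the deposited values, no filter on dim genes, only the 5 arrays fitted or the replicate block (adjusted p 0.0134 to 0.254). With the liver as a replicate block its adjusted p was 0.0597. The call for Cyp2u1 ended without normal diet 117 or 120 or high fat 117 or 186 (adjusted p 0.00466 to 0.156).

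The acute phase genes that passed the test were called higher. Of 33 measured, 12 were higher (36.4%, against 1.81% of all genes) and none lower, with a median of 0.37. The list does not record which way each member moves in inflammation. Mt1 and Mt2, among the 12, are also on the list of NRF2 and glutathione genes. Trf, another of the 12, read 37438 and 35981 against 40210, 34221 and 39599, so the diets overlapped (0.31 ± 0.04, adjusted p = 0.0204). Its call ended under several alternatives, among them the deposited values (adjusted p = 0.8935). Saa1 and Saa2, the serum amyloid proteins that hepatocytes release in inflammation, were both higher. Saa1 read 1300 and 763 on normal diet and 3073, 4802 and 4699 on high fat diet, and Saa2 read 425 and 260.1 against 1701, 1971 and 1771, with log2 fold changes of 2.19 ± 0.26 and 2.41 ± 0.18 (SE, adjusted p = 0.0116 and 0.00254). Their transcripts are so alike that the probes may not tell them apart. Lcn2, which binds bacterial siderophores, read 48.5 and 38 against 314, 514 and 372 and changed by 2.31 ± 0.28 (SE, adjusted p = 0.0133). Orm2, an orosomucoid, read 85.8 and 50 against 254, 360.3 and 273, a change of 1.62 ± 0.20 (SE, adjusted p = 0.014). Hp, the haemoglobin scavenger haptoglobin, was bright on normal diet, at 13074 and 11453, and read 19970, 21284 and 22447 on high fat diet (1.14 ± 0.08, adjusted p = 0.00254). The metallothionein Mt1, which binds zinc, read 299 and 399 against 1152, 856 and 812 (1.43 ± 0.23, adjusted p = 0.0294). No high fat value of Saa1, Saa2, Lcn2, Orm2, Hp or Mt1 was as low as a normal diet value. Hamp, the iron hormone hepcidin, varied among the high fat livers, at 15457 and 10407 against 814, 1203 and 7021 (adjusted p = 0.19). The call for Saa1 ended without normal diet 120 (adjusted p 0.000812 to 0.0721). The call for Lcn2 ended without normal diet 117 or 120 (adjusted p 0.000449 to 0.102). The call for Orm2 ended without normal diet 117 or 120 (adjusted p 0.00158 to 0.102). The call for Mt1 ended without normal diet 117 or 120, high fat 117 or 186 or tumour 117 (adjusted p 0.00512 to 0.174). Over the list, 3 genes were called higher without normal diet 117 and 2 without normal diet 120, against 6, 7 and 9 without high fat 117, 186 and 1.

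Complement and clotting genes showed the opposite direction, with 7 of 36 lower and none higher and a median of -0.12. Beside C8b, the clotting factor gene F11 fell from 552 and 506 to 170.2, 213 and 166 (-1.15 ± 0.17, adjusted p = 0.0205). F7, which starts clotting with tissue factor, read 834 and 683 against 392, 292 and 406 (-0.79 ± 0.12, adjusted p = 0.0217). C1ra, a protease of the first complement component, read 1921 and 1921 against 920.1, 971 and 971 and changed by -0.74 ± 0.08 (SE, adjusted p = 0.00789). Serpinf2, the inhibitor of plasmin, read 2361 and 2366 against 1320, 1147 and 1219 (-0.65 ± 0.07, adjusted p = 0.00746). The direction depended on the scaling: with arrays scaled to the same median 4 genes of the list were called higher and 4 lower. Without normal diet 117, or without normal diet 120, 1 gene of the list was called. Among 31 hepatokines, Serpina7, which carries thyroid hormone, was higher, at 246 and 186 against 602, 1086 and 1173 (1.97 ± 0.28, adjusted p = 0.0199). Igfbp2, a binding protein of insulin-like growth factors, was lower, at 2481 and 3452 against 966, 422 and 603 (-1.87 ± 0.36, adjusted p = 0.0456). Angptl8, an inhibitor of lipoprotein lipase made after feeding, read 3374 and 1974 against 176, 556 and 468 (adjusted p = 0.0576). The call for F11 ended without normal diet 117 or 120 or high fat 117 or 1 (adjusted p 0.00383 to 0.129). The call for F7 ended without normal diet 117 or 120 or high fat 117, and with median scaling or no normalization (adjusted p 0.01 to 0.133). The call for C1ra ended without normal diet 117 or 120 (adjusted p 0.00549 to 0.0715). The call for Serpinf2 ended without normal diet 117 or 120 (adjusted p 0.00582 to 0.0706). The call for Serpina7 ended without normal diet 117 or 120 or high fat 186 or 1 (adjusted p 0.00305 to 0.132). The call for Igfbp2 ended without normal diet 117 or 120, tumour 117 or 1 or high fat 186 or 1, and with no filter on dim genes, only the 5 arrays fitted or the replicate block (adjusted p 0.00636 to 0.245). With the liver as a replicate block its adjusted p was 0.0581.

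**Figure D5:**
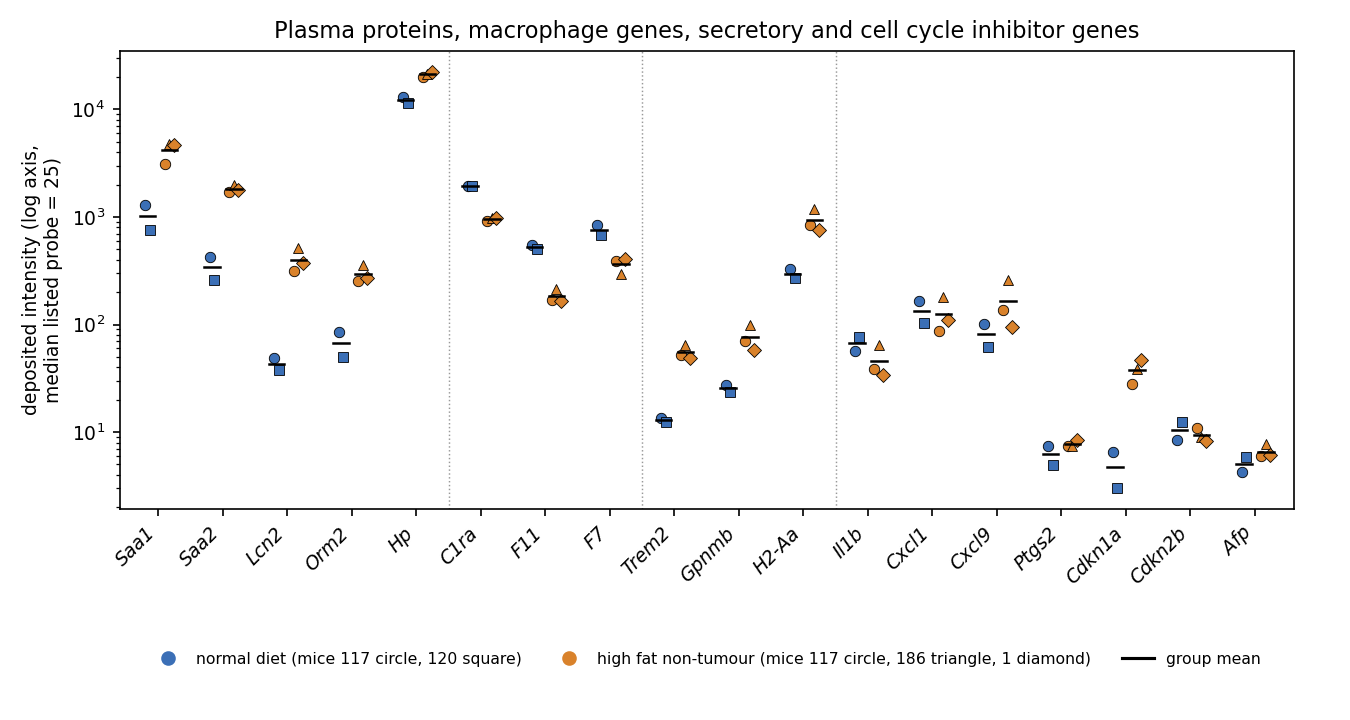
Deposited intensity on a log axis of, from left to right, acute phase genes, complement and clotting genes, macrophage and MHC class II genes, and cytokine, cell cycle inhibitor and tumour genes, 1 point per liver, with a bar at the arithmetic mean of each diet. High fat points lie above normal diet points for the acute phase genes, Trem2 and H2-Aa, below them for C1ra, F11 and F7, and overlap with them for Il1b, Cxcl1, Cxcl9 and Cdkn2b.

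Lipid-associated macrophages gather around fat-laden cells. Of their 21 measured markers, 6 were called higher and none lower, with a median of 0.62. Trem2, the lipid-sensing receptor that defines these cells, read 13.4 and 12.3 on normal diet and 51.8, 64.9 and 49.3 on high fat diet. It changed by 0.81 ± 0.08 (SE, adjusted p = 0.00651). Gpnmb, a membrane glycoprotein of the same cells, read 27.7 and 23.5 against 70.9, 98.1 and 58.5 (0.78 ± 0.15, adjusted p = 0.0436). Lipa, the acid lipase of lysosomes, read 572 and 467 against 837, 860.3 and 978 (0.87 ± 0.08, adjusted p = 0.00574). Anxa5, which binds phosphatidylserine, read 438 and 508 against 1420, 2146 and 1981 (adjusted p = 0.0133). The other calls, Cd36 and Plin2, were given with the fat storage genes, and hepatocytes also express Lipa and Anxa5. Of 25 Kupffer cell and macrophage markers, 2 were called higher, with a median of 0.53 and a summed level of 2847 to 3436 on normal diet and 4826 to 5788 on high fat diet. On the deposited scale 17 of the 25 lay wholly higher and 2 wholly lower, where 13% and 31.8% of all genes did. Clec4f, which marks resident Kupffer cells, read 282 and 231 against 290.5, 180.2 and 377 and Adgre1, the general macrophage marker F4/80, 9.1 and 7.8 against 12, 21.2 and 14.4, with adjusted p of 0.731 and 0.549. Among 15 genes of MHC class II and dendritic cells, H2-Aa, a class II chain, read 326 and 269 against 851, 1187 and 754 (1.58 ± 0.25, adjusted p = 0.0262), and 2 genes were called. Its partner H2-Ab1 read 127 and 93.5 against 332, 458 and 373 and Cd74, the invariant chain, 112 and 87.6 against 318, 432 and 273, with no overlap and adjusted p of 0.105 and 0.141. The call for Trem2 ended without normal diet 117 or 120 (adjusted p 0.000338 to 0.0592). The call for Gpnmb ended without normal diet 117 or 120, high fat 117 or 186 or tumour 117 or 186, and with no filter on dim genes, only the 5 arrays fitted or the replicate block (adjusted p 0.00712 to 0.219). With the liver as a replicate block its adjusted p was 0.0532. The call for Anxa5 ended without normal diet 117 or 120 (adjusted p 0.00118 to 0.0987). The call for H2-Aa ended without normal diet 117 or 120 or high fat 117 (adjusted p 0.00432 to 0.161). With arrays scaled to the same median 11 Kupffer cell and macrophage markers were called higher and 2 lower.

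Of 36 stellate cell and fibrosis genes, 3 were called higher (8.33%, against 1.81% of all genes). On the deposited scale 24 of the 36 lay wholly higher and 2 wholly lower, where 13% and 31.8% of all genes did. Col3a1, a fibrillar collagen, read 85.5 and 126 against 397, 369.9 and 294 (1.45 ± 0.26, adjusted p = 0.0367), but its second, dimmer probe changed by 0.09 and was not called. Col1a1 was dim at 6 and 6 against 10.3, 13 and 14.7, and Acta2, the marker of activated stellate cells, read 18.6 and 19.7 against 178, 24.1 and 38, where high fat 117 stood apart. None of the markers of neutrophils (13), T and NK cells (25), B and plasma cells (9), endothelium (26) or cholangiocytes (18) was called. Of 7 measured red blood cell markers, 1 was called. Car1, a carbonic anhydrase of red cells, was lower, at 86.9 and 82.3 against 35.1, 30.6 and 36.2 (-0.63 ± 0.05, adjusted p = 0.00269). The call for Car1 ended with the blank mean subtracted (adjusted p 0.00025 to 0.135). The log2 fold changes of the 4 measured haemoglobin genes were above 0, and none passed the test. Hba-a2 read 5682 and 7201 against 28061, 10269 and 10299 and Hbb-bs 5139 and 6591 against 29073, 15155 and 7922 (adjusted p = 0.183 and 0.166). High fat 117 was the highest in both, and the part of blood in the other results was not tested. The call for Col3a1 ended without normal diet 117 or 120, high fat 117, 186 or 1 or tumour 117 (adjusted p 0.00384 to 0.209).

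Of 34 genes of inflammation and the inflammasome, 2 were called lower (5.88%, against 2.03% of all genes) and none higher. Il1b, a cytokine of macrophages, read 57.2 and 76.1 on normal diet and 38.4, 64.2 and 33.7 on high fat diet. The chemokine Cxcl1 read 165 and 103 against 86.6, 181 and 110.3, Cxcl9 102 and 61.8 against 135, 262 and 94.2 and the prostaglandin synthase Ptgs2 7.5 and 4.9 against 7.5, 7.5 and 8.4. The diets overlapped in all 4, with adjusted p of 0.461, 0.988, 0.284 and 0.353. Il18, a cytokine released by inflammasomes, was called lower, at 323 and 255 against 166, 159 and 169.8 (-0.50 ± 0.06, adjusted p = 0.0145). Gsdmd, which forms the pores through which such cytokines leave, was called lower as well, at 261 and 249 against 149.8, 139 and 146 (-0.51 ± 0.07, adjusted p = 0.0199). Gsdmd was also the 1 call among 29 senescence genes (3.45%). The cell cycle inhibitor Cdkn1a read 6.5 and 3 against 27.8, 39 and 46.4, with no overlap and an adjusted p of 0.23. In the tumours, whose spread enters the test, it read 92.6, 70.7 and 198. Cdkn2b read 8.4 and 12.4 against 10.9, 9.1 and 8.3 (adjusted p = 0.983), and Cdkn2a was listed on 1 of the 5 arrays. The call for Il18 ended without high fat 117 or 186, and with median scaling or no normalization (adjusted p 0.0117 to 0.24). The call for Gsdmd ended without normal diet 117 or 120 or high fat 117, 186 or 1, and with median scaling or no normalization (adjusted p 0.00549 to 0.137).

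The cell cycle list had 1 call among 35 (2.86%, against 1.81% of all genes called higher). This was Mcm2, at 17.1 and 15.8 against 27.7, 32.8 and 28.5 (0.29 ± 0.05, adjusted p = 0.0359). The proliferation marker Mki67 read 11.6 and 10.1 against 16.9, 18.3 and 13.6 (adjusted p = 0.318), and Afp, the fetal albumin that many liver tumours make, 4.3 and 5.9 against 6, 7.7 and 6.1 (adjusted p = 0.95). Of 30 liver tumour and oncofetal markers, 3 were called higher: Lcn2, Ly6d and Hk2. Hk2, a hexokinase that adult hepatocytes hardly make, read 8.4 and 6.3 against 85.3, 73.3 and 103 and changed by 1.34 ± 0.17 (SE, adjusted p = 0.0137). Ldha, lactate dehydrogenase, read 4137 and 4127 against 7567, 5892 and 7368 (0.99 ± 0.16, adjusted p = 0.0307). The call for Mcm2 ended without normal diet 117 or 120, high fat 117, 186 or 1 or tumour 117 (adjusted p 0.0155 to 0.188). The call for Hk2 ended without normal diet 117 or 120 (adjusted p 0.000338 to 0.102). The call for Ldha ended without normal diet 117 or 120 or high fat 117, 186 or 1, and with the deposited values (adjusted p 0.0104 to 0.172). The call for Lcn2 ended without normal diet 117 or 120 (adjusted p 0.000449 to 0.102).

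Of 33 NRF2 and glutathione genes, 7 were called higher (21.2%, against 1.81% of all genes) and none lower, with a median of 0.29. On the deposited scale 14 of the 33 lay wholly higher and 8 wholly lower, where 13% and 31.8% of all genes did. The 2 largest of the 7 calls were Mt2 and Mt1, which are also counted among the acute phase genes. The call for Mt2 ended under several alternatives, among them no filter on dim genes and only the 5 arrays fitted. Srxn1, which repairs peroxiredoxins, read 311 and 307 against 556, 637 and 795 and changed by 1.10 ± 0.13 (SE, adjusted p = 0.0123), and its second probe changed by 1.04. Mgst3, a membrane-bound glutathione transferase, read 255 and 268 against 451, 583 and 526 (0.98 ± 0.15, adjusted p = 0.0256). Nqo1, the usual marker gene of NRF2, read 39.9 and 37.1 against 63.7, 54.8 and 67.7, with no overlap and an adjusted p of 0.0944. The call for Srxn1 ended without normal diet 117 or 120 (adjusted p 0.00182 to 0.0869). The call for Mgst3 ended without normal diet 117 or 120 or high fat 186 or 1 (adjusted p 0.00344 to 0.158). None of the 33 was called without normal diet 117, and none without normal diet 120. In the stress response list, Chac1, which degrades glutathione, was higher at 27.1 and 14.9 against 97.5, 114 and 121 (1.24 ± 0.12, adjusted p = 0.0061). Atf4, the factor named for the same response, was lower at 855 and 852 against 310, 325 and 388 (-1.02 ± 0.10, adjusted p = 0.00759). The call for Chac1 ended without normal diet 120 (adjusted p 0.000271 to 0.0517). The call for Atf4 ended without normal diet 117 or 120 (adjusted p 0.00246 to 0.0706). Of 47 genes of amino acid breakdown, 2 were called lower (4.26%, against 2.03% of all genes), Cth and Afmid, and the median was -0.29. Cth, of cysteine synthesis, read 4103 and 3201 against 1452, 1409 and 1668 (-0.97 ± 0.14, adjusted p = 0.0204), and Afmid, of tryptophan breakdown, 422 and 328 against 124, 98 and 117 (-1.23 ± 0.20, adjusted p = 0.0287). The call for Cth ended without normal diet 117 or 120 or high fat 117 or 186 (adjusted p 0.00414 to 0.122). The call for Afmid ended without normal diet 117 or 120 or high fat 117, 186 or 1 (adjusted p 0.00566 to 0.175).

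Several large changes lay outside the lists, apart from that of Ly6d on the tumour marker list. Ly6d, a surface protein of keratinocytes and B cell precursors, read 26.8 and 24 on normal diet and 1434, 1924 and 1421 on high fat diet, a change of 4.48 ± 0.23 (SE, adjusted p = 0.00105). Prkcq, a protein kinase C of T cells and muscle, read 25.2 and 24.5 against 657, 963 and 718 and changed by 3.47 ± 0.16 (SE, adjusted p = 0.00105). Its second probe changed by -0.02 and was not called. No T cell marker was called either, but the lack of calls says little because these markers were dim and the offset shrinks their changes. The 25 T and NK cell markers had a summed level of 374 to 464 on normal diet and 422 to 537 on high fat diet. Ifi27l2b, of an interferon-induced family, read 125 and 95.2 against 931, 1014 and 844 (2.67 ± 0.15, adjusted p = 0.00127), while none of 35 interferon response genes was called. The ubiquitin ligase Lrsam1 read 148 and 149 against 836, 1114 and 921 (2.41 ± 0.14, adjusted p = 0.00137). Anxa2, a membrane-binding annexin, read 373 and 369 against 1239, 1614 and 1497 (1.97 ± 0.12, adjusted p = 0.00182), and the galectin Lgals1 745 and 597 against 2023, 2209 and 3164 (1.96 ± 0.17, adjusted p = 0.00494). The growth factor Fgf5 was dim on normal diet, at 7.5 and 5.8, and read 138, 208 and 176 on high fat diet (2.06 ± 0.14, adjusted p = 0.00237). Downward, the probe named for Apc, whose sequence is not given in the sources used here, read 454 and 667 against 53.8, 32.3 and 38.2 (-2.59 ± 0.17, adjusted p = 0.00189). Gm10681, a predicted gene, read 1203 and 1034 against 199.9, 195 and 189.9 (-2.03 ± 0.18, adjusted p = 0.0048). All these genes had high fat values on 1 side of both normal diet values.

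The tumours of the same 3 livers give a further point for each gene, but the tumour comparison shares the non-tumour arrays with this one, so its values are only set beside it. Cidea read 461, 437 and 191 in the tumours and Mogat1 22.4, 29.6 and 14.4, with tumour minus non-tumour log2 differences of -2.00 ± 0.41 and -1.61 ± 0.11 (SE). Ly6d read 7707, 5459 and 9824, Lcn2 3422, 4610 and 6928 and Prkcq 2171, 2053 and 2817, above every non-tumour value. Hsd3b5 read 3.7, 3.7 and 2.7 and Cyp26a1 10.4, 14 and 9.6, below every non-tumour value. Hsd3b5 was dim in both tissues of the high fat livers. Its tumour minus non-tumour log2 difference was -0.11 ± 0.07 (SE, limma adjusted p = 0.328). Osbpl3 read 128, 147 and 177 and Cyp2b10 352, 411 and 466, in or near the range of the non-tumour livers. Idi1 read 331, 468 and 522, above every non-tumour value. Afp and Cdkn2b, low in both diets, read 688, 594 and 1312 and 421, 459 and 787 in the tumours.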

How the data were processed

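Per the labels, total RNA was amplified, coupled to Cy5 and hybridised to 1 array per sample. The scanner files hold spot and local background intensities as deposited by the authors; the scanner and its software are not given in the sources used here. The authors' deposited table holds normalized intensities, which fitted a straight line on the scanner values of each array (the blank mean subtracted, then scaled to a median of 25). No depth of counts exists for arrays, and the number of arrays limits the precision.

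Here, spot medians were corrected by normexp with 2736 blank spots and an offset of 50, quantile normalized, log2 transformed and fitted with limma 3.58.1 (R 4.3.3), with group means over all 8 arrays and 5 residual degrees of freedom. Genes took their brightest probe; 2522 of 19316 genes, listed on all arrays of no group, were left out. Gene names came from the platform annotation, updated through RefSeq. On simulated data of the same size the fit called 74.6%, 92.5% and 98.5% of genes changed by 0.5, 1 and 2 on the log2 scale, and 0.0482% of unchanged genes. The simulated arrays were independent, with the same spread in every group. They held no effect of scan setting or liver and no shrinkage of dim genes by the offset. These rates therefore check the fit and do not give the share of true or false calls in the real arrays.

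The members and gene lists were chosen with earlier results of these data known. Named genes are the 15 largest rises and falls among called genes that did not overlap, up to 6 called members per list and a fixed set of 33 genes, some of which are not reported here. Chosen after their values were seen were Acadl, Adgre1, Alb, Angptl8, Anxa2, Apob, Cd74, Cpt1a, Cyp1a2, Cyp2c37, Cyp2d9, Cyp2u1, Cyp3a11, Cyp4a14, Cyp51, Cyp7b1, Eif2s3y, Elovl3, Fabp4, Fam83a, Fgf5, Ghr, H2-Ab1, Hadha, Hamp, Hba-a2, Hbb-bs, Hp, Keg1, Lbp, Lgals1, Msmo1, Mttp, Nqo1, Plin1, S100a11, Serpina1e, Slc10a1, Tm7sf2 and Xist.

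Tumour and non-tumour arrays of 1 liver come from the same animal. Their deviations from the group means correlated at 0.443, 0.148 and 0.167 within livers and at -0.274 to 0.0282 across them, so the liver was tried as a replicate block. Promoter windows were searched with Python 3.11.15.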

Additional observations from a re-analysis of the deposited data

How the results depend on the processing

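The 645 calls were recomputed under 20 alternatives. The count was 3 with local background subtracted, 1403 with arrays scaled to the same median and 3659 with no normalization, where the median of all genes moved to 0.12. It ran from 100 to 783 with 1 array left out; a lone normal diet array was assumed to vary like the other groups. Calls over 2-fold, 102 in all, numbered 437 with the blank mean subtracted, 189 with offset 16, 3 with local background, 218 with no normalization and 437 with the deposited values, which are not shrunk by an offset. They ran from 38 to 113 with 1 array left out. With the liver as a replicate block there were 645 calls, 612 of them shared, and 102 over 2-fold; the block ended 4 of 128 calls among named genes. With local background the log2 changes of Hsd3b5 (0.43), Hadha (-0.0691), Rtn4 (-0.70) and Lbp (-0.00191) turned sign, and with no normalization that of Smad6 did (0.0202). The calls for Lbp and Smad6 also ended under several other alternatives, among them the blank mean subtracted and the deposited values. Of 128 called named genes, 28 kept the call in every alternative but local background and no normalization. The deposited values called 326 genes higher and 500 lower, and their median moved to -0.11. Slide or scan as a block was not run: no slide is given, and the scan setting cannot be told apart from the diet. Dim probes near the blank level limit what can be seen: their changes are shrunk by the offset.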

Other observations

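Further genes among the largest changes belonged to none of the groups above. Tubb2a, a beta tubulin, read 1308 and 893 on normal diet and 3147, 3811 and 6439 on high fat diet and changed by 2.14 ± 0.27 on the log2 scale (SE, adjusted p = 0.014). Rad51b, of DNA repair by recombination, read 24.3 and 15.5 against 279, 374 and 468 (2.64 ± 0.45, adjusted p = 0.0337). S100a11, a calcium binding protein, read 54.1 and 68.2 against 418, 482 and 349 (2.13 ± 0.22, adjusted p = 0.00729). Every high fat value of these 3 genes was above both normal diet values. Lingo4, a membrane protein, read 318 and 377 against 71, 29.4 and 80.7 (-1.75 ± 0.22, adjusted p = 0.0133), with every high fat value below both normal diet values. The call for Tubb2a ended without normal diet 117 or 120 (adjusted p 0.00132 to 0.102). The call for Rad51b ended without normal diet 117 or 120 or high fat 117, 186 or 1 (adjusted p 0.00151 to 0.184). The call for S100a11 ended without normal diet 117 or 120 (adjusted p 0.000347 to 0.0611). The call for Lingo4 ended without normal diet 117 or 120 (adjusted p 0.00252 to 0.102).

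Fam83a was not listed on either normal diet array and read 28.3, 51.6 and 29.1 on high fat diet. Limma's adjusted p for it was 0.293. Of 2276 tested probes without a gene name, 75 were called at an adjusted p below 0.05.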
